A study of Rattus norvegicus with 12 samples.

Results

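Fibronectin and 8 matricellular protein genes were read across rat cardiac fibroblasts and cells made from these by viral expression of Sall4 and Gata4. The genes were taken by symbol from the deposited count table: Fn1, Sparc, Postn, Ctgf, Cyr61, Thbs1, Thbs2, Tnc and Spon1. All 9 were found among 32545 genes, and all 9 passed the low-count filter that left 14399 genes for testing. The 12 libraries form 4 groups of 3 biological replicates. GS diff2 are GS cells kept in CMM medium with EGM2 solution added, labelled as cardiomyocyte/endothelial differentiation. GS diff1 are GS cells kept in CMM medium, labelled as cardiomyocyte differentiation. GS are immortalized, undifferentiated cells that carry viral Sall4 and Gata4, and RCF are wild-type parental fibroblasts, untreated per the design text, that served as controls. The labels give the viral protocol for all 12 samples, RCF included. No source used here gives whether the GS cells are 1 clone, which promoter drives the viral genes, the time in each medium or the age of the animals.

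Fibronectin is a large secreted glycoprotein that cells assemble into fibrils through integrins, and it forms the provisional matrix onto which collagen is laid. Matricellular proteins are secreted into the same matrix but mainly act as signals, binding integrins, growth factors and proteases rather than bearing load. In the heart they are known for being scarce in resting adult myocardium and abundant in development, after injury and in activated fibroblasts.

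Libraries held 16255682 to 23117864 counts. Sall4 had 0 counts in every RCF library. This goes with the design text and genotype label of RCF and not with the viral protocol in its labels. Sall4 had 1328 to 1541 counts in GS diff2, 3980 to 4705 in GS diff1 and 3689 to 5363 in GS. Gata4 had 5423 to 6526 counts in GS diff2, 8629 to 10245 in GS diff1, 9219 to 13138 in GS and 4013 to 4806 in RCF. Among the GS-derived groups, both were thus lowest in GS diff2. The fibroblast markers Col1a1, Col1a2 and Vim were abundant in all groups, and the 8 listed fibroblast markers summed to 25760 to 42571 CPM per library. CPM are read counts normalised to library size with TMM factors. Tcf21 and Dcn, fibroblast markers of the same list, were at 18.5 and 32.8 CPM in RCF. In GS diff2, GS diff1 and GS they averaged no more than 1.00 CPM. Pdgfra went the other way, averaging 463 CPM in GS diff2, 437 in GS diff1, 688 in GS and 97.4 in RCF. Ddr2 averaged 104, 128, 149 and 259 CPM in these groups, in that order, and Thy1 207, 107, 184 and 151 CPM. Macrophage markers summed to 32.2 to 34.2 CPM in GS diff2, 16.7 to 17.6 CPM in GS diff1, 23.2 to 26.8 CPM in GS and 51.7 to 53.6 CPM in RCF, with Adgre1 at 0 in all but RCF. The 5 endothelial markers in the table summed to at most 22.7 CPM and the 6 cardiomyocyte markers to at most 37.9 CPM in any library. Tek made up most of the endothelial sum in every group, averaging 13.6 CPM in GS diff2, 16.1 in GS diff1, 12.2 in GS and 13.0 in RCF. Tnnt2 made up most of the cardiomyocyte sum, averaging 34.1 CPM in GS diff2, 7.67 in GS diff1, 1.96 in GS and 15.1 in RCF. Cdh5 was at 0 in GS diff1, Kdr at 0 in GS, and Myh7 at 0 in GS diff2, GS and RCF.

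The 9 genes took up 3.36% to 3.41% of all counts in GS diff2, 4.75% to 4.84% in GS diff1, 6.19% to 6.38% in GS and 2.01% to 2.05% in RCF. Fibronectin alone was 1.95% to 1.98% of counts in GS diff2, 1.49% to 1.55% in GS diff1, 2.74% to 2.96% in GS and 0.774% to 0.803% in RCF. The GS libraries thus gave the largest share of their reads to these genes and the RCF libraries the smallest. In these bulk samples, fewer expressing cells and less RNA per cell cannot be told apart.

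Promoters are shown for the 4 genes with a window that were at least 2-fold lower in GS diff2 both than in GS and than in GS diff1. They are the 250 bases before and 50 bases after the start site from RefSeq (build GRCr8), which held such a window for 6 of the 9 genes. Capitals mark the TEAD core motif GGAATG on either strand (CATTCC on the printed strand). TEAD factors are the DNA-binding partners of the mechanosensitive coactivators YAP and TAZ, and Ctgf and Cyr61 are textbook YAP targets.
Ctgf (Ccn2 in RefSeq, chr1:22624565-22624864, minus strand): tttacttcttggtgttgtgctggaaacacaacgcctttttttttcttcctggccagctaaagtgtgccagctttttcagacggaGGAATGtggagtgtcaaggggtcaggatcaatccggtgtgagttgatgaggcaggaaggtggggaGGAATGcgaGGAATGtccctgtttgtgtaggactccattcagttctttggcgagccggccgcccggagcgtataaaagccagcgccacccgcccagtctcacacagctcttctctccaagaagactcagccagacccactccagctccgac
Cyr61 (Ccn1 in RefSeq, chr2:237225640-237225939, minus strand): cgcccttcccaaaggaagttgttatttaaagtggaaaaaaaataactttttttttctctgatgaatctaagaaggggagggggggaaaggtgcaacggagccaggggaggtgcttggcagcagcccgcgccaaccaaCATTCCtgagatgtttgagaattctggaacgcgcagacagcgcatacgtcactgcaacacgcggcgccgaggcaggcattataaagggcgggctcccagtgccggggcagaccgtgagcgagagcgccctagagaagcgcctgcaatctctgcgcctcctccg
Thbs1 (chr3:125510000-125510299, plus strand): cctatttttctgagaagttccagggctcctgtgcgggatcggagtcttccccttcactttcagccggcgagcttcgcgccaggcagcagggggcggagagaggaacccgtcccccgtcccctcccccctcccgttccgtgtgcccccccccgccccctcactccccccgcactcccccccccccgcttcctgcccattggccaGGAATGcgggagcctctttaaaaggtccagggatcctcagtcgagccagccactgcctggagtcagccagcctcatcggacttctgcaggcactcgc
Tnc (chr5:82476082-82476381, minus strand): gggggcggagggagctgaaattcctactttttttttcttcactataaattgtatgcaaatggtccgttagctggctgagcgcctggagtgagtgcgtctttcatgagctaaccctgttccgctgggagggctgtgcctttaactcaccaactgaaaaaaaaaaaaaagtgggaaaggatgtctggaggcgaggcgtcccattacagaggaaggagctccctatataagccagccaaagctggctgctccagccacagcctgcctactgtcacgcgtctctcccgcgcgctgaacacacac

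The Ctgf window held 3 matches to GGAATG, with first bases at -166, -101 and -92 from the start site. Cyr61 held 1 at -113, Thbs1 1 at -47 and Sparc 1 at -33, while Tnc and Postn held none. Of all 33469 promoter windows of this length, 14.2% held the motif on at least 1 strand. The TATA box motif TATAAA (both strands searched) was found in the windows of Ctgf, Cyr61, Postn and Tnc, against 14.2% of all windows. Its first base lay at -31 in Ctgf, -34 in Cyr61 and -44 in Postn, but at -208 in Tnc. No window of the 6 held the AP-1 motif TGANTCA (7.33% of all windows) or a CArG box, the motif of the serum response factor SRF (1.64%). No motif found overlapped another, and a match describes letters only.

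Fibronectin was highest in GS. Fn1 (ENSRNOG00000014288, chromosome 9, 78900103 to 78969078, minus strand, positions here and below as in the count table, for which Rnor_6.0 is the only rat build in the submitters' processing notes) stood at 19209, 19285 and 19564 CPM in GS diff2 and at 15489, 14907 and 15006 CPM in GS diff1. It stood at 30073, 30764 and 28638 CPM in GS and at 7555, 7824 and 7722 CPM in RCF. No 2 groups overlapped, and the order was GS, GS diff2, GS diff1, RCF. GS was 3.87-fold above RCF (log2 fold change 1.95 ± 0.0224, edgeR quasi-likelihood adjusted p = 1.5e-30, with ± after a log2 fold change giving its standard error throughout). Fn1 was lower in both media than in GS, 1.97-fold in GS diff1 (adjusted p = 1.2e-23) and 1.54-fold in GS diff2 (adjusted p = 2.01e-19), and GS diff2 was 1.28-fold above GS diff1 (adjusted p = 6.23e-14). Its gene body overlaps a gene on the other strand that holds 62 counts over all libraries, against 4192041 for Fn1. None of the other 8 genes overlaps an annotated neighbour.

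**Figure D1:**
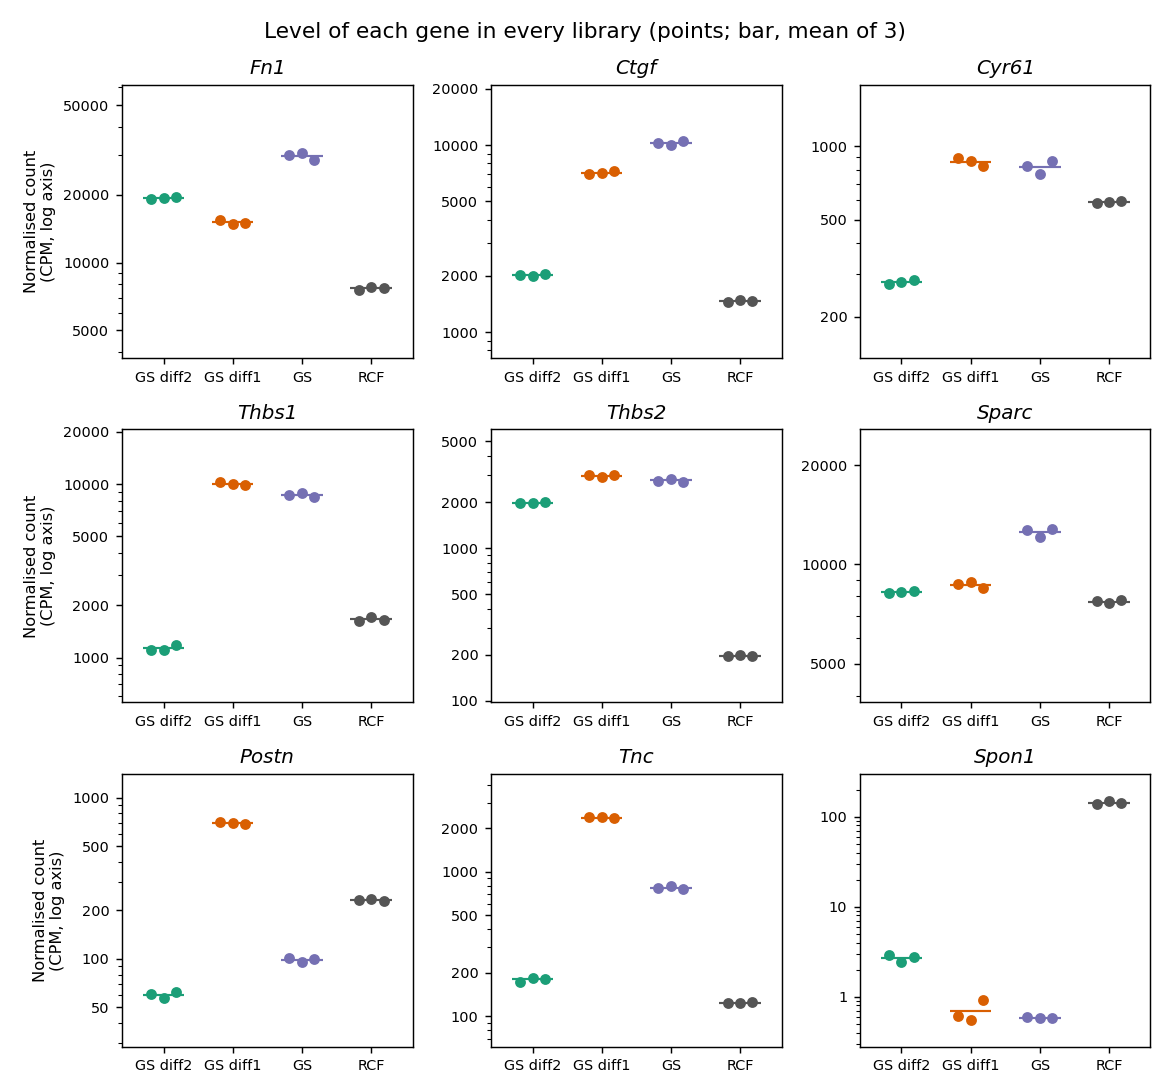
Normalised read counts (CPM, log axes that differ between panels) of the 9 genes in every library of GS diff2, GS diff1, GS and RCF; each point is 1 library and each bar the mean of 3. Replicates lie close together, so that only Cyr61 and Spon1 have groups that overlap, in both cases GS diff1 and GS.

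The CCN genes encode small secreted proteins that bind integrins and growth factors, and Ctgf and Cyr61 are induced by mechanical tension, YAP and TGF-beta. Ctgf, connective tissue growth factor (ENSRNOG00000015036, chromosome 1, 21851660 to 21854773, minus strand), stood at 2031, 1989 and 2058 CPM in GS diff2 and at 6994, 7089 and 7235 CPM in GS diff1. It stood at 10230, 10057 and 10480 CPM in GS and at 1461, 1480 and 1479 CPM in RCF. GS and GS diff1 were thus the high groups, and GS diff2 came close to RCF without overlapping it. GS was 6.96-fold above RCF (log2 2.80 ± 0.0225, edgeR adjusted p = 1.74e-37), and GS diff2 was 5.06-fold below GS (log2 -2.34 ± 0.022, adjusted p = 3.23e-35). GS diff1 was 1.44-fold below GS (adjusted p = 1.57e-19).

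Cyr61 (ENSRNOG00000014350, chromosome 2, 251529354 to 251532312, minus strand) had a narrower range than Ctgf. It stood at 272, 279 and 283 CPM in GS diff2 and at 891, 868 and 832 CPM in GS diff1. It stood at 832, 772 and 867 CPM in GS and at 584, 590 and 596 CPM in RCF. Here GS diff2 was the lowest group, below RCF. GS diff2 was 2.97-fold below GS (log2 -1.57 ± 0.0347, edgeR adjusted p = 1.34e-24) and 2.13-fold below RCF (adjusted p = 3.88e-21), while GS was 1.40-fold above RCF (adjusted p = 4.51e-13). GS diff1 and GS overlapped, and their difference missed the threshold (log2 0.07, 95% interval of the fold 1.00 to 1.10, adjusted p = 0.073). That difference passed when TMM factors were left out (log2 0.13), with no low-count filter (log2 0.08) and without the replicate numbered 3 of GS diff1 (log2 0.10) or of GS (log2 0.11).

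Thrombospondins are multidomain glycoproteins known for restraining blood vessel growth through CD36 and CD47, and Thbs1 also for activating latent TGF-beta. Thbs1 (ENSRNOG00000045829, chromosome 3, 109862117 to 109873466, plus strand) stood at 1103, 1107 and 1175 CPM in GS diff2 and at 10339, 9995 and 9862 CPM in GS diff1. It stood at 8705, 8929 and 8380 CPM in GS and at 1626, 1702 and 1645 CPM in RCF. GS diff1 and GS were high, RCF was low and GS diff2 was lower still. GS was 5.23-fold above RCF (log2 2.39 ± 0.0284, edgeR adjusted p = 5.93e-27). GS diff2 was 7.68-fold below GS (log2 -2.94 ± 0.0291, adjusted p = 2.6e-28) and 8.92-fold below GS diff1 (adjusted p = 9.59e-29).

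Thbs2 (ENSRNOG00000010529, chromosome 1, 56653938 to 56683731, minus strand) did not show the low level of Thbs1 in GS diff2. It stood at 1971, 1970 and 1997 CPM in GS diff2 and at 2999, 2947 and 2997 CPM in GS diff1. It stood at 2774, 2850 and 2716 CPM in GS and at 196, 201 and 195 CPM in RCF. All 3 groups derived from GS cells were far above RCF, by 10.04-fold in GS diff2, 15.1-fold in GS diff1 and 14.1-fold in GS (edgeR adjusted p = 5.71e-38, 1.59e-39 and 4.46e-39). GS diff2 was 1.40-fold below GS (log2 -0.49 ± 0.0231, adjusted p = 9.19e-18) and 1.51-fold below GS diff1.

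Per kb of gene model, the ratio of Thbs2 to Thbs1 was 1.09 ± 0.0304 in GS diff2, 0.184 ± 0.0044 in GS diff1, 0.199 ± 0.0019 in GS and 0.0739 ± 0.0009 in RCF (SD, n = 3 each). Thbs2 was thus level with Thbs1 in GS diff2 alone of these 4 groups. The ratio of Ctgf to Cyr61 was 5.34 ± 0.125 in GS diff2, 6.02 ± 0.313 in GS diff1, 9.12 ± 0.359 in GS and 1.83 ± 0.0096 in RCF. Tenascin C to fibronectin was 0.0108 ± 0.0003 in GS diff2, 0.183 ± 0.0034 in GS diff1, 0.0302 ± 0.0005 in GS and 0.0187 ± 0.0003 in RCF. No 2 groups overlapped in any of these 3 ratios. The ratios were not tested.

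**Figure D2:**
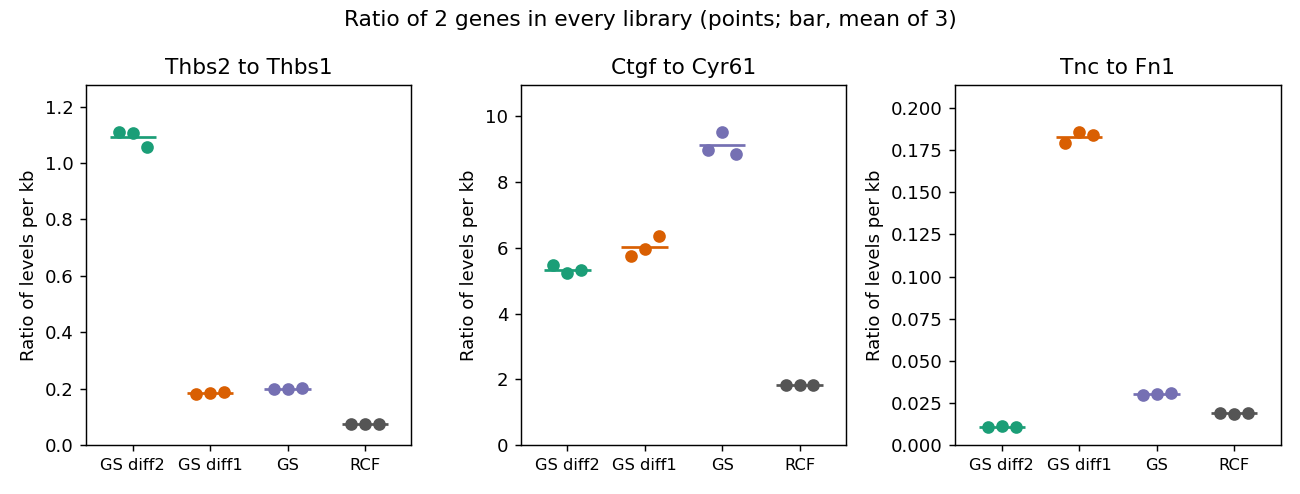
Ratio of the levels per kb of Thbs2 to Thbs1, Ctgf to Cyr61 and Tnc to Fn1 in every library (linear axes from 0); each point is 1 library and each bar the mean of 3. Thbs2 to Thbs1 stands near 1.09 in GS diff2 and at or below 0.202 in every other library, and Tnc to Fn1 is highest in GS diff1.

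Sparc, a collagen-binding glycoprotein of bone and remodelling tissue, differed least among groups. Sparc (ENSRNOG00000012840, chromosome 10, 40742400 to 40764185, minus strand) stood at 8215, 8262 and 8332 CPM in GS diff2 and at 8714, 8840 and 8459 CPM in GS diff1. It stood at 12709, 12129 and 12839 CPM in GS and at 7732, 7635 and 7781 CPM in RCF. Only the GS libraries stood well above the others, 1.63-fold over RCF (edgeR adjusted p = 7.17e-23). GS diff2 was 1.52-fold and GS diff1 1.45-fold below GS (adjusted p = 4.68e-21 and 1.22e-19). GS diff2 and GS diff1 differed by 1.05-fold (log2 -0.07, adjusted p = 0.00545). When TMM factors were left out, this fell short of the threshold (log2 -0.05, edgeR adjusted p = 0.0502).

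Tenascin C and periostin are proteins of injured and developing matrix and are widely used as marks of activated fibroblasts. Tnc (ENSRNOG00000058645, chromosome 5, 79789671 to 79874671, minus strand) stood at 173, 184 and 182 CPM in GS diff2 and at 2382, 2378 and 2367 CPM in GS diff1. It stood at 769, 794 and 757 CPM in GS and at 123, 124 and 125 CPM in RCF. GS diff1 was highest and GS came next, well above GS diff2 and RCF. GS was 6.25-fold above RCF (log2 2.64 ± 0.0291, edgeR adjusted p = 4.23e-34) and GS diff1 a further 3.07-fold above GS (log2 1.62 ± 0.0272, adjusted p = 6.76e-29). GS diff2 was 4.31-fold below GS (adjusted p = 1.94e-31) and 13.2-fold below GS diff1 (log2 -3.73 ± 0.0299, adjusted p = 8.27e-37).

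Postn (ENSRNOG00000012660, chromosome 2, 143656793 to 143688087, plus strand) was also highest in GS diff1, but unlike Tnc it was lower in GS than in RCF. It stood at 60.7, 56.9 and 62.4 CPM in GS diff2 and at 704, 702 and 688 CPM in GS diff1. It stood at 102, 95.1 and 100.4 CPM in GS and at 231, 236 and 230.4 CPM in RCF. GS was 2.35-fold below RCF (log2 -1.23 ± 0.0356, edgeR adjusted p = 2.81e-23). GS diff1 was 7.05-fold above GS (log2 2.82 ± 0.0362, adjusted p = 8.84e-32) and 3.00-fold above RCF (adjusted p = 7.75e-27). GS diff2 was 1.65-fold below GS (adjusted p = 1.32e-16) and 11.7-fold below GS diff1 (adjusted p = 6.36e-34).

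The summed smooth muscle markers, like Tnc and Postn, were highest in GS diff1. The 6 markers (Acta2, Tagln, Myh11, Cnn1, Myl9 and Smtn) summed to 396 to 401 CPM in GS diff2, 2520 to 2564 CPM in GS diff1, 606 to 636 CPM in GS and 823 to 844 CPM in RCF, with none at 0. Acta2 (961 ± 13.7 CPM), Tagln (1107 ± 16.9) and Smtn (428 ± 2.51) made up most of the sum in GS diff1, and with Cnn1 they were highest there. Myh11 and Myl9 were not, at 3.38 ± 1.25 and 22.3 ± 0.410 CPM in GS diff1 and 4.53 ± 0.715 and 31.1 ± 1.82 CPM in RCF. The 6 epithelial markers summed to 740.3 to 759 CPM in GS diff2, 2362 to 2383 CPM in GS diff1, 694 to 719 CPM in GS and 1.06 to 1.90 CPM in RCF, where Krt18 and Cldn6 were at 0. In GS diff1, Krt8 (1159 ± 8.68 CPM) and Krt18 (726 ± 3.45) made up most of the epithelial sum. Krt19 was instead highest in GS, at 25.4 ± 1.45 CPM against 20.3 ± 2.83 in GS diff1. The markers' part in these results was not tested.

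Spon1 encodes spondin-1 (F-spondin), a matrix protein first described in the floor plate of the neural tube, and was the only one of the 9 genes close to absent in the GS-derived groups. Spon1 (ENSRNOG00000058003, chromosome 1, 178636544 to 178935051, plus strand) had 56, 56 and 53 counts in GS diff2 and 13, 11 and 16 counts in GS diff1. It had 13, 10 and 9 counts in GS and 3310, 2912 and 2973 counts in RCF. In normalised terms RCF stood at 140, 149 and 141 CPM, and no library of the other groups exceeded 2.90 CPM. GS was 242-fold below RCF (log2 -7.92 ± 0.115, 95% interval of the fold 206 to 285, edgeR adjusted p = 5.03e-31). GS diff2 was 4.56-fold above GS (log2 2.19 ± 0.19, adjusted p = 1.89e-11) and still 53.0-fold below RCF (adjusted p = 3.95e-30). GS diff1 and GS overlapped, and at this depth no difference was detectable (log2 0.23, 95% interval of the fold 0.813 to 1.69, adjusted p = 0.567). The summed macrophage markers were also highest in RCF, at no more than 53.6 CPM. Of the 6, Cd14 was not highest there, at 29.4 ± 1.11 CPM in GS diff2, 14.1 ± 0.899 in GS diff1, 23.2 ± 2.30 in GS and 17.3 ± 0.767 in RCF. It made up most of the sum in the GS-derived groups, where none of the other 5 averaged above 3.41 CPM. In RCF, Cd68 and Adgre1 averaged 14.4 ± 1.73 and 14.3 ± 0.981 CPM. The markers' part in the Spon1 difference was not tested.

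**Figure D3:**
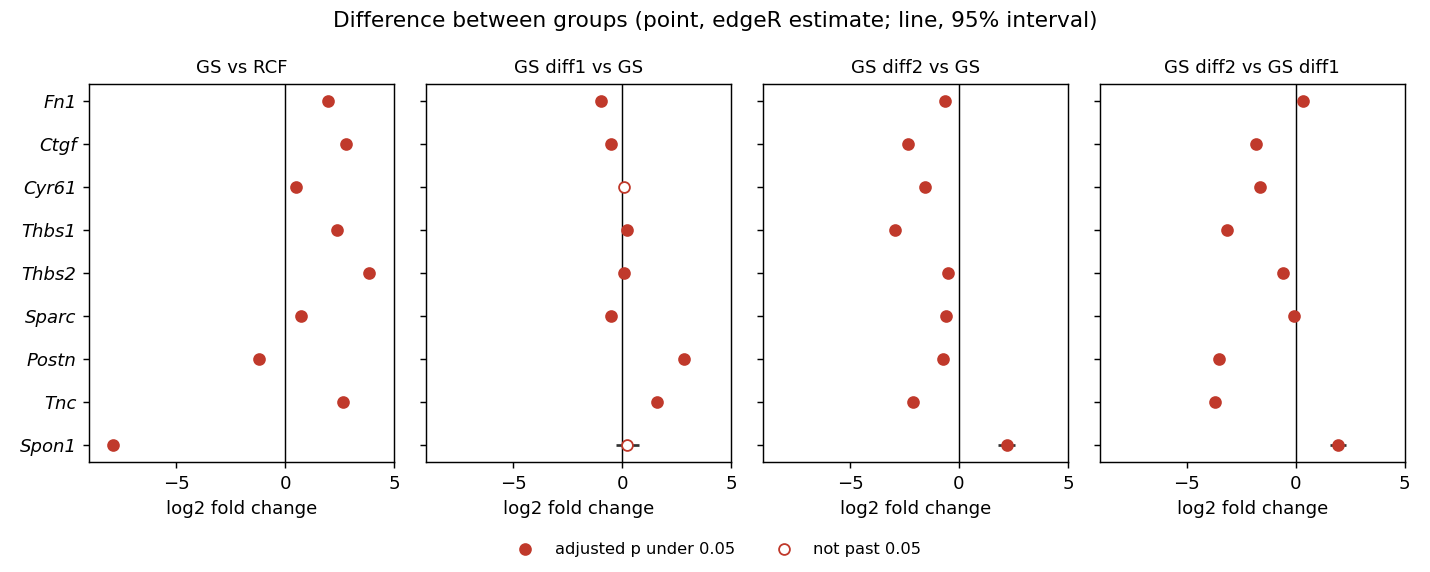
Log2 fold change of the 9 genes in 4 comparisons, with the point at the edgeR estimate and the line giving its 95% interval (hidden by the point where narrow); open points missed an adjusted p of 0.05. In GS against RCF 7 genes lie right of 0, and in GS diff2 against GS 8 genes lie left of it.

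Levels of different genes are compared per kb of the gene model length given in the table. Sparc ranked first in all 4 groups, at 4009 ± 28.6 CPM per kb in GS diff2, 4203 ± 93.9 in GS diff1, 6088 ± 183 in GS and 3740 ± 35.9 in RCF (SD, n = 3 each). Behind it came Fn1 in GS diff2 (2302 CPM per kb), Thbs1 in GS diff1 (2754), Ctgf in GS (3782) and Fn1 in RCF (916). Spon1 ranked last in GS diff2, GS diff1 and GS, and Tnc ranked last in RCF at 17.2 CPM per kb. Thbs2 ranked just ahead of Thbs1 in GS diff2 (337 against 309 CPM per kb), and below Postn in RCF (33.5 against 72.0). In no group did the libraries of neighbouring genes in this order overlap.

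**Figure D4:**
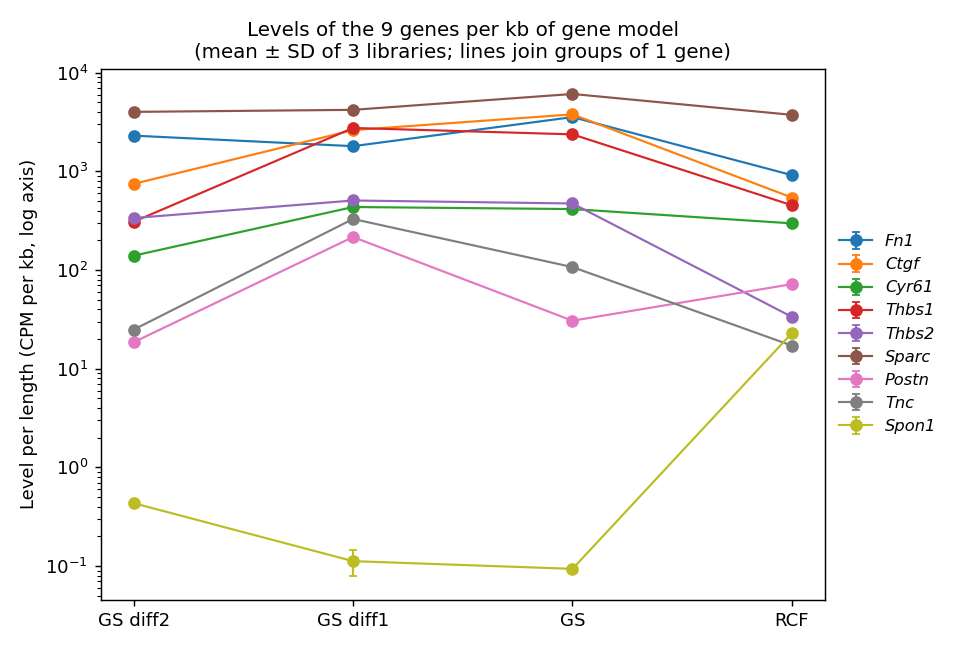
Mean level per kb of gene model (CPM per kb, log axis, ± SD of 3 libraries) of the 9 genes in GS diff2, GS diff1, GS and RCF; lines join the groups of each gene and carry no order of time. Sparc stays on top in every group, while Thbs1 lies at 309 in GS diff2 and at 2754 in GS diff1.

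Read as a group, the 9 genes mostly rose in GS against RCF, the comparison of the undifferentiated Sall4 and Gata4 cells with untreated parental cells. In this comparison 7 were higher and 2, Postn and Spon1, lower, while 71.3% of all tested genes passed the test in either direction, 35.0% higher and 36.3% lower. At a fold of at least 2, 7 of the 9 passed, against 25.9% of all genes. Of these, Fn1, Ctgf, Thbs1, Thbs2 and Tnc were higher, and Postn and Spon1 lower. Sparc and Cyr61 rose by less, 1.63-fold and 1.40-fold. The median log2 fold change of the 9 was 1.95, against -0.03 over all tested genes. In GS diff1 against GS, which asks what differed in CMM medium, 4 were higher, 3 lower and 2 not called, and 64.3% of all genes passed, 32.0% higher and 32.3% lower. At 2-fold or more only Postn and Tnc passed, against 18.2% of all genes, and the median of the 9 was 0.10. The 9 genes were chosen with earlier results of these data known, so that these shares and those below do not test the group.

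With EGM2 added the direction was mostly down. In GS diff2 against GS, 8 of the 9 were lower and only Spon1 higher. Of all genes 67.0% passed in either direction, 33.3% higher and 33.7% lower. Of the 9, 5 passed at 2-fold or more, against 21.5% of all genes. Among these, Ctgf, Cyr61, Thbs1 and Tnc were lower. Spon1 was higher but low in both groups (2.71 against 0.585 CPM). In GS diff2 against GS diff1, the direct test of the difference between media, 7 were lower and 2 (Fn1 and Spon1) higher, against 63.7% of all genes passing, 32.1% higher and 31.5% lower. At 2-fold or more 6 of the 9 passed, against 19.0% of all genes: Postn, Ctgf, Cyr61, Thbs1 and Tnc lower, and Spon1 higher. The median log2 fold change of the 9 was -1.64. Both comparisons with GS share the GS libraries, and no label gives culture times or densities, so that medium, time and growth state cannot be told apart. Counts of Sall4 and Gata4 were also lower in GS diff2 than in GS diff1 and GS, and their part was not tested.

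Against the parental fibroblasts, GS diff1 had 8 of the 9 genes higher and Spon1 lower, with 75.4% of all genes passing, 38.0% higher and 37.4% lower. At 2-fold or more 6 of the 9 passed, the lower gene Spon1 among them, against 32.6% of all genes. Its largest rises were Tnc at 19.2-fold (log2 4.26 ± 0.0308, edgeR adjusted p = 9.1e-39) and Thbs2 at 15.1-fold, and Ctgf was 4.82-fold higher. GS diff2 had 5 higher and 4 lower, with 72.5% of all genes passing, 37.1% higher and 35.4% lower. At 2-fold or more 5 of the 9 passed, against 29.2% of all genes: Fn1 and Thbs2 higher, and Postn, Cyr61 and Spon1 lower. In GS diff2 Postn was 3.88-fold, Cyr61 2.13-fold and Thbs1 1.47-fold below RCF, whereas Fn1 was 2.51-fold, Tnc 1.45-fold and Ctgf 1.38-fold above it. Sparc was 1.07-fold above RCF in GS diff2 and 1.12-fold above it in GS diff1. These comparisons share the RCF libraries.

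Other matricellular genes followed no common direction. Of 20 listed, 14 were tested: 5 were higher and 7 lower in GS against RCF, 7 higher and 5 lower in GS diff1 against GS, 4 higher and 7 lower in GS diff2 against GS, and 4 higher and 8 lower in GS diff2 against GS diff1. Of all tested genes, 71.3%, 64.3%, 67.0% and 63.7% passed in these 4 comparisons, in that order. The median log2 fold changes of the 14 were -0.49, 0.05, -0.30 and -0.51, beside medians of all tested genes between -0.03 and 0.00. Tnn, tenascin N, stood at 755 ± 6.29 CPM in GS diff2, 1187 ± 3.77 in GS diff1, 745 ± 18.9 in GS and 0.107 ± 0.0485 in RCF (SD, n = 3 each). Comp, a thrombospondin of cartilage and tendon, rose to 87.6 ± 3.97 CPM in GS, set against 2.48 ± 0.783 in RCF (35.7-fold, edgeR adjusted p = 6.51e-18). Spp1, osteopontin, rose to 3166 ± 66.1 CPM in GS diff2, against 182 ± 5.19 in GS (17.4-fold, adjusted p = 3.15e-37). Tgfbi, a TGF-beta-induced relative of periostin, stood at 63.4 ± 4.68 CPM in GS diff2 and 1.45 ± 0.584 in GS (adjusted p = 1.22e-06). Spp1 and Tgfbi were each highest in GS diff2 of the 4 groups. Postn was lowest there, and Tnc was lower there than in GS diff1 and GS but not than in RCF.

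Further CCN genes differed from Ctgf in the order of their groups. Nov, another CCN gene, stood at 169 ± 4.77 CPM in GS diff2, 995 ± 19.5 in GS diff1, 292 ± 4.66 in GS and 828 ± 14.9 in RCF, and was 3.41-fold higher in GS diff1 than in GS (edgeR adjusted p = 4.44e-29). Wisp2, a CCN gene that lacks the C-terminal domain of the family, fell to 125 ± 2.30 CPM in GS diff2 and to 222 ± 3.77 in GS diff1, against 1074 ± 24.7 in GS (adjusted p = 1.11e-34 and 9.51e-32). Smoc1, of the Sparc family, stood at 2.93 ± 0.512 CPM in GS diff2 and 60.1 ± 3.03 in GS diff1, 20.4-fold apart (adjusted p = 1.31e-25), and Smoc2 fell to 1.51 ± 0.710 CPM in GS, against 17.6 ± 0.789 in RCF.

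Receptors of these proteins were tested as 17 of 17 listed integrins, syndecans and scavenger receptors. In GS against RCF 7 were higher and 9 lower, in GS diff1 against GS 3 and 8, in GS diff2 against GS 7 and 7, and in GS diff2 against GS diff1 9 and 4. The medians (log2), for the comparisons in the order just given, were -0.32, -0.09, -0.06 and 0.62. In the same order, 71.3%, 64.3%, 67.0% and 63.7% of all tested genes passed in either direction. Itga5, the alpha subunit of the main fibronectin receptor, rose to 622 ± 6.26 CPM in GS diff2, against 271 ± 0.724 in GS (2.30-fold, edgeR adjusted p = 3.67e-25). Itga8, another fibronectin-binding subunit that also binds tenascin C, fell to 31.1 ± 1.91 CPM in GS diff2, against 134 ± 6.76 in GS (adjusted p = 8.85e-25). Itgb6, an epithelial subunit that activates latent TGF-beta, stood at 46.8 ± 2.20 CPM in GS and 3.05 ± 0.483 in RCF, and Itgb3 at 6.10 ± 1.57 against 27.1 ± 0.987. Cd47, a thrombospondin receptor, fell to 54.5 ± 0.203 CPM in GS diff1, against 112 ± 2.25 in GS (adjusted p = 1.46e-19). Lrp1, which clears thrombospondins from the cell surface, fell to 901 ± 12.7 CPM in GS diff1, against 3071 ± 276 in GS (adjusted p = 1.16e-10). Itgb8, a partner of the alpha v subunit, stood at 14.95 ± 0.808 CPM in GS diff2, 4.22 ± 0.116 in GS diff1, 11.5 ± 1.57 in GS and 31.4 ± 2.70 in RCF. Sdc3, a syndecan, fell to 43.3 ± 1.203 CPM in GS diff2, against 120.0 ± 3.54 in GS (2.77-fold, edgeR adjusted p = 2.97e-22).

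Of the TGF-beta pathway genes, tested as 17 of 17, 5 were higher and 10 lower in GS against RCF, beside 35.0% and 36.3% of all tested genes. In each medium against GS, 4 were higher and 11 lower, beside 32.0% and 32.3% of all genes in GS diff1 and 33.3% and 33.7% in GS diff2. Between GS diff2 and GS diff1 they were 8 higher and 6 lower, beside 32.1% and 31.5% of all genes. Median log2 fold changes were -0.29 in GS against RCF, -0.42 in GS diff1 against GS, -0.19 in GS diff2 against GS and 0.02 between the media. The ligand gene Tgfb2 stood at 26.6 ± 2.19 CPM in GS diff2, 245 ± 18.2 in GS diff1, 133 ± 4.01 in GS and 189 ± 4.31 in RCF, and GS diff2 was 9.24-fold below GS diff1 (edgeR adjusted p = 2.42e-24). Tgfb3 stood at 24.9 ± 1.43 CPM in GS diff2, 130 ± 3.40 in GS diff1, 64.2 ± 2.05 in GS and 283 ± 6.62 in RCF, and GS diff2 was 5.22-fold below GS diff1 (adjusted p = 2.64e-27). The latent TGF-beta binding protein gene Ltbp1 went the other way, at 934 ± 14.9 CPM in GS diff2 and 257 ± 7.05 in GS (3.64-fold, adjusted p = 5.51e-30). The receptor gene Tgfbr2 and the signal transducer gene Smad3 were 2.14-fold and 2.46-fold lower in GS diff1 than in GS (adjusted p = 2.99e-21 and 7.97e-21). Ltbp2 stood at 4300.3 ± 25.2 CPM in GS diff2, 1587 ± 40.1 in GS diff1, 3371 ± 92.7 in GS and 1405 ± 23.2 in RCF. The inhibitory genes Skil and Smad6 were also lower, Skil 2.67-fold in GS diff2 against GS and Smad6 2.44-fold in GS against RCF (edgeR adjusted p = 1.03e-19 and 3.27e-14). Ltbp3 was 2.53-fold lower in GS diff1 than in RCF (adjusted p = 5.56e-26).

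Targets of YAP and TEAD other than Ctgf and Cyr61 were split in every comparison. Of 20 listed, 19 were tested: 9 were higher and 7 lower in GS against RCF, 6 higher and 12 lower in GS diff1 against GS, 7 higher and 11 lower in GS diff2 against GS, and 9 higher and 10 lower in GS diff2 against GS diff1. The list medians were 0.03, -0.25, -0.31 and -0.51 on the log2 scale, in that order. Beside them, 71.3%, 64.3%, 67.0% and 63.7% of all tested genes passed in either direction. Ankrd1, a cardiac stress protein gene, stood at 10.2 ± 1.44 CPM in GS diff2, 79.7 ± 4.84 in GS diff1, 47.4 ± 1.83 in GS and 46.5 ± 2.45 in RCF. Ajuba, a LIM protein gene, stood at 84.2 ± 2.91 CPM in GS diff2, 390 ± 17.9 in GS diff1, 291 ± 4.91 in GS and 63.5 ± 3.11 in RCF. In GS diff2 they were 7.81-fold and 4.63-fold below GS diff1 (edgeR adjusted p = 7.35e-24 and 4.85e-28). Nt5e, the ecto-nucleotidase CD73, went the other way, at 343 ± 12.9 CPM in GS diff2 and 5.82 ± 0.336 in GS diff1 (59.1-fold, adjusted p = 6.36e-34). F3, tissue factor, rose to 488 ± 16.0 CPM in GS, against 105 ± 4.62 in RCF (4.66-fold, edgeR adjusted p = 1.51e-29). Ccdc80 and Rbms3 were 6.25-fold and 5.38-fold lower in GS diff2 than in GS (adjusted p = 3.37e-37 and 1.77e-17). Gadd45a and Fjx1 were 3.69-fold and 3.02-fold lower in GS diff1 than in GS (adjusted p = 7.42e-22 and 8.73e-16). Igfbp3, which encodes a binding protein of insulin-like growth factors, was 7.04-fold lower in GS diff2 than in RCF (adjusted p = 7.75e-21).

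Among 12 tested regulators of the YAP, TEAD and SRF systems, 2 were higher and 9 lower in GS diff2 against GS, and 3 higher and 9 lower in GS diff2 against GS diff1. In GS against RCF 8 were higher and 3 lower, and in GS diff1 against GS 7 and 3. Of all tested genes, 33.3% were higher and 33.7% lower in GS diff2 against GS, and 32.1% and 31.5% in GS diff2 against GS diff1. These shares were 35.0% and 36.3% in GS against RCF, and 32.0% and 32.3% in GS diff1 against GS. On the log2 scale the list median was -0.45 in GS diff2 against GS, -0.56 in GS diff2 against GS diff1, 0.31 in GS against RCF and 0.12 in GS diff1 against GS. Tead4 stood at 52.3 ± 2.09 CPM in GS diff2, 141 ± 4.01 in GS diff1, 81.7 ± 4.21 in GS and 32.2 ± 2.66 in RCF. Srf stood at 72.7 ± 3.79 CPM in GS diff2, 128 ± 3.90 in GS diff1, 116 ± 4.49 in GS and 64.1 ± 0.844 in RCF. Vgll3, a TEAD cofactor gene, fell to 20.2 ± 0.959 CPM in GS diff2, against 79.0 ± 2.27 in GS (3.91-fold, edgeR adjusted p = 4.66e-23). Myocd, the smooth muscle coactivator of SRF, stood at 1.01 ± 0.107 CPM in GS diff2, 10.5 ± 0.689 in GS diff1 and 3.73 ± 1.03 in GS, with 0.0422 ± 0.0731 in RCF. In GS, Tead2 lay 1.67-fold below RCF, and Vgll4 lay 1.47-fold below GS in GS diff1 (edgeR adjusted p = 6.88e-06 and 1.2e-06). Wwtr1, which encodes TAZ, was 1.72-fold higher in GS diff2 than in RCF (adjusted p = 6.84e-17).

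Fibrillar collagens and cross-linking genes were tested together with Bmp1 and Serpinh1, as 13 of 13. Fibronectin and several matricellular proteins bind or are linked to products of such genes. In GS against RCF 6 were higher and 5 lower, in GS diff1 against GS 9 and 2, in GS diff2 against GS 5 and 6, and in GS diff2 against GS diff1 3 and 9. Medians on the log2 scale were -0.03, 0.37, -0.24 and -0.56 in that order. The shares of all tested genes that passed were 71.3%, 64.3%, 67.0% and 63.7%, likewise in order. Col3a1 stood at 3221 ± 41.7 CPM in GS diff2 and 11396 ± 34.4 in GS (3.54-fold lower, edgeR adjusted p = 3.63e-32). Col5a1 was 2.02-fold higher in GS diff1 than in GS (adjusted p = 7.26e-20). The lysyl oxidase family split: Loxl3 was 4.52-fold higher and Loxl2 2.18-fold lower in GS diff2 than in GS (adjusted p = 2.05e-30 and 1.53e-22). Loxl1 was 2.29-fold lower in GS diff1 than in GS, and Loxl4 2.71-fold higher in GS than in RCF (edgeR adjusted p = 2.64e-22 and 3.34e-16). Tgm2, a transglutaminase that cross-links fibronectin, fell to 5.50 ± 0.266 CPM in GS, where RCF had 28.8 ± 0.999 (5.24-fold, adjusted p = 2.43e-17).

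**Figure D5:**
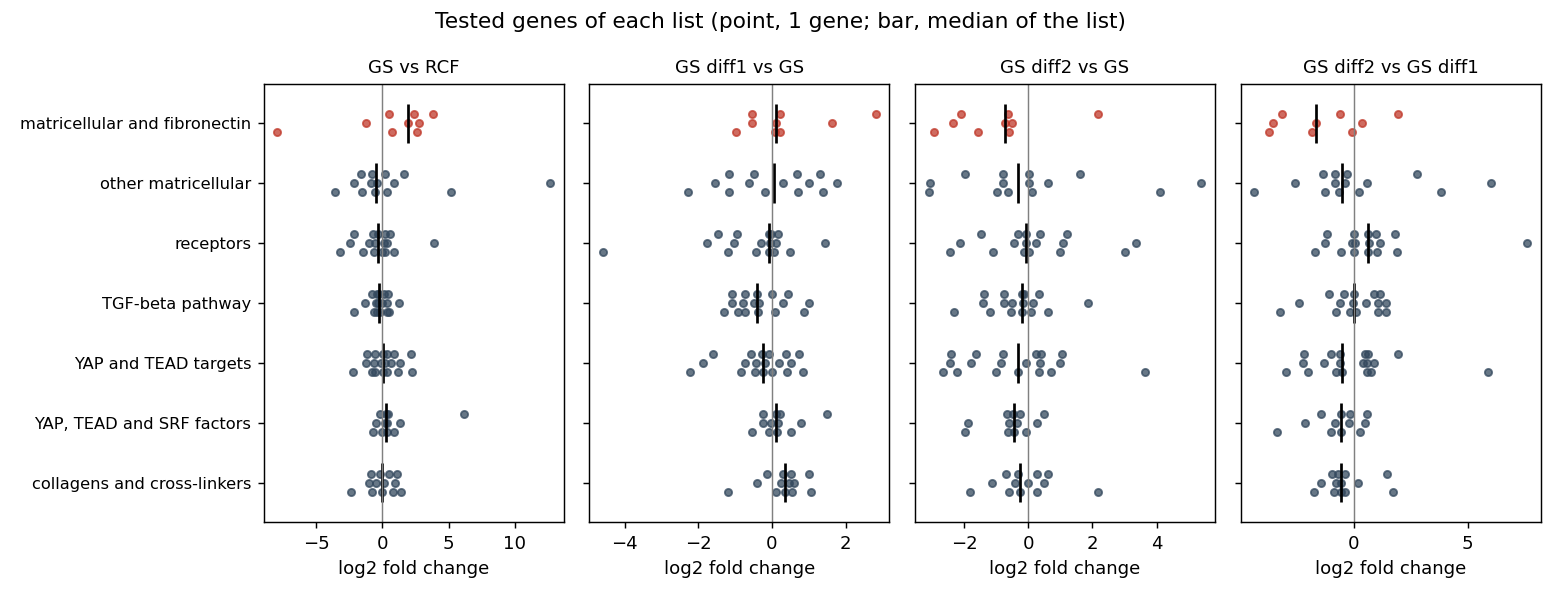
Log2 fold change of every tested gene of the 7 lists in 4 comparisons (x axes differ); each point is 1 gene and each bar the median of its list. The median of matricellular genes and fibronectin lies at 1.95 in GS against RCF and at -1.64 in GS diff2 against GS diff1, and every list holds genes on both sides of 0.

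The genes most like each member were sought among 9440 genes with a mean of at least 10 CPM, by Pearson's r of log2 CPM over the 12 libraries. These values describe libraries that share 4 groups, so that r mostly reflects group means. Closest to Ctgf were Mthfd1l (r = 0.999), Shmt2 and Fv1, and closest to Cyr61 were Amotl2 (0.994), Nedd9 and S1pr3. Amotl2, itself a listed YAP target, stood at 331 ± 4.66 CPM in GS diff2, 661 ± 13.0 in GS diff1, 664 ± 7.37 in GS and 517 ± 8.93 in RCF. Closest to Thbs1 were Cdk14 (0.997) and Bdp1, and closest to Thbs2 were Hsd17b2 (0.9997), Cldn6 and Ripk4. Tnc was closest to Col12a1 (0.996), Inhba and Pkn3, and Postn to Dffa (0.991), Adamts12 and Impdh1. Fn1 was closest to Jam2 (0.996), Rara and Thbd, Sparc to Bmp3 (0.993), Rpl5 and Eif4ebp1, and Spon1 to Entpd5 (0.998), Etfdh and Dcbld2.

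Within the 9 genes, r over the 12 libraries was 0.94 between Ctgf and Thbs1, 0.93 between Thbs1 and Tnc, and 0.88 between Cyr61 and Thbs1. It was -0.99 between Thbs2 and Spon1. Postn had r of 0.23 with Ctgf and -0.46 with Fn1. The 9 genes thus did not form a single pattern over these groups.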

How the data were processed

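Per the labels' protocols, RNeasy-prepared total RNA of 12 samples went into Ovation RNA-seq v2 libraries. The authors deposited whole-number read counts per gene, whose totals differ between libraries as raw counts do. The submitters' processing notes name Bowtie 0.12.2 and the builds mm8 and Rnor_6.0, without roles. Positions are those of the table, and Rnor_6.0 is the only rat build named. No source used here gives the counting program, annotation release or use of strand. Gene lengths are the table's own (deposited as base counts of each gene model), and levels per kb depend on them.

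The count test was edgeR 4.0.16 with TMM factors (R 4.3.3, limma 3.58.1). filterByExpr left 14399 genes. All 12 libraries entered 1 quasi-likelihood fit by group. Contrasts were two-sided, p-values were adjusted by Benjamini-Hochberg across the tested genes, and calls needed an adjusted p under 0.05. DESeq2 1.42.0 served as an alternative. The 9 genes and all lists were chosen with earlier results of these data known, and no test was run on a list. Named list genes were the up to 3 called genes of each list and comparison with the largest change, among genes reaching 10 CPM in either group. The 3 genes most like each member were taken by correlation, and 1 of these is not reported here. Of 100 listed genes in 6 lists, 98 matched the table and 92 were tested; where a symbol had 2 rows the first was used. Chi-square per degree of freedom between replicates was 4.44 to 7.57, above sampling noise in all 12 pairs, so all were kept as separate samples. That replicates are biological rests on the design text. Intervals from counts cover the spread between these libraries.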

Additional observations from a re-analysis of the deposited data

How the results depend on the processing

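Results were recomputed with library totals as the only scaling, DESeq2 size factors, DESeq2's own test, limma-voom, no low-count filter, only both groups compared, a replicate block, and leaving out each of the 12 libraries in turn. Over the 9 genes, 6 comparisons and these alternatives, 1021 values kept their direction and their side of the threshold, 4 gained a call (Cyr61 in GS diff1 against GS), 1 lost it (Sparc in GS diff2 against GS diff1, with library totals) and 0 reversed. The number of the 9 genes called stayed at 9 in GS against RCF, GS diff2 against GS and both comparisons with RCF. It was 7 to 8 in GS diff1 against GS and 8 to 9 in GS diff2 against GS diff1. Deviations from the group means correlated at -0.05 to 0.08 over 18 pairs of same-numbered libraries. These values show no sign of pairing by replicate number but cannot exclude it. With the replicate block 9 of the 9 genes were called in GS against RCF and 7 in GS diff1 against GS, as without it. No count over all genes moved by 1.5 times. Among the 9 genes depth was lowest for Spon1 in GS diff1 and GS, with 9 to 16 counts per library.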
